A study of Homo sapiens with 8 samples.

Results

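The genes described are 10 matrix glycoprotein genes, FN1, POSTN, TGFBI, TNC, SPARC, THBS2, FBN1, FBN2, FBLN5 and TINAGL1, chosen by name from the 58735 genes of the count table. The identifiers were matched to GENCODE release 29 symbols, all 10 were found, and all 10 passed the filter on low counts with 15647 genes in all. Their counts were measured by RNA-seq in SRA01/04 cells, an immortalised human lens epithelial line kept in serum-containing medium. There were 4 libraries of cells in which SMURF1 was knocked down with a short hairpin RNA (shSmurf1 in the labels, shSMURF1 here) and 4 libraries of cells with a control hairpin (shControl, labelled wild type). All 8 libraries came from cells given recombinant human TGF-β2 (20 ng/ml, 48 h), knockdown and control alike, and no untreated cells entered the comparison. The comparison asks what SMURF1, a ubiquitin ligase of the SMAD pathway, does to gene expression in lens cells exposed to this growth factor. The labels do not say whether a knockdown line was 1 clone or a pool, whether the 4 libraries of a group came from separate cultures, or whether more than 1 hairpin sequence was used. The p-values below therefore measure the spread between these libraries, which may be technical.

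Matrix glycoproteins link cells, collagens and growth factors outside the cell. Fibronectin is laid down as fibrils through integrins and is the scaffold on which other proteins assemble. Periostin, TGFBI, tenascin-C, SPARC and thrombospondin-2 are matricellular proteins, which modulate adhesion and collagen assembly more than they bear load. Fibrillins and fibulin-5 build microfibrils and elastic fibres, and fibrillins hold latent TGF-β complexes in the matrix. In the lens, TGF-β drives epithelial cells towards a fibroblast-like state with deposition of such matrix, as in fibrotic cataract, and fibrillin microfibrils form the zonule that suspends the lens.

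Library totals ranged from 14688651 to 16789144 counts in shSMURF1 and from 15000813 to 17030394 counts in shControl. SMURF1 itself (ENSG00000198742) had 51.4, 50.4, 51.4 and 51.2 CPM (the depth-scaled read count, with TMM scaling factors) in shSMURF1 replicates 1 to 4, against 85.8, 93.3, 88.5 and 88.1 CPM in shControl replicates 1 to 4. It was lower in every shSMURF1 library (log2 fold change −0.80 ± 0.055 SE, edgeR adjusted p = 2.86e-09). Its 40 nearest tested neighbours on chromosome 7 had a median log2 fold change of −0.24, and SMURF1 lay at −0.56 relative to them. TRRAP, on the opposite strand, overlaps 11.7% of its exonic bases. shSMURF1 replicate 3 stood apart from its group. The chi-square per degree of freedom between its counts and those of the other shSMURF1 libraries was 9.86 to 13.1, against 2.79 to 3.42 among those 3 and 2.60 to 4.08 among shControl libraries. The libraries also differed in how log2 CPM followed GC content: the smoothed deviation of genes at 60% GC was 0.08, 0.10, −0.12 and 0.11 in shSMURF1 replicates 1 to 4 and −0.07 to −0.02 in shControl. Mitochondrial genes took 5.07% to 6.34% of counts in shSMURF1 and 4.03% to 4.40% in shControl. Whether these differences in GC trend and mitochondrial share played a part in the results was not tested beyond refits without shSMURF1 replicate 3 and after subtraction of the GC trends, which are given where they bear on a result.

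Of the markers of lens identity, PAX6 averaged 34.0 CPM in shSMURF1 and 33.3 CPM in shControl, and SIX3 averaged 12.6 CPM in shSMURF1 and 16.2 CPM in shControl. SIX3 was called lower (log2 fold change −0.37, edgeR adjusted p = 0.0106) and passed in 7 of 8 fits that left out 1 library. ELP4, on the opposite strand, overlaps 25.2% of the exonic bases of PAX6. Only 3 of the 15 lens markers passed the filter, and all 15 summed to 46.5 to 57.4 CPM in shSMURF1 and 52.8 to 56.2 CPM in shControl. FOXE3 had 10 counts and CRYAA 4 over the 8 libraries, and SOX1 and CRYBB1 had none. KRT8 was high (877 CPM in shSMURF1 and 917 CPM in shControl), as was the mesenchymal filament gene VIM (1712 CPM in shSMURF1 and 2122 CPM in shControl), while CDH1 had 4 counts in all. Of 4 tested simple-epithelium markers, KRT19 alone was called, as lower (38.0 CPM in shSMURF1 and 180 CPM in shControl, edgeR adjusted p = 2.88e-15). Of 8 mesenchymal markers, all tested, 2 were called higher and 2 lower, where 22.5% of all genes tested were called. The 7 leukocyte markers summed to 11.7 to 14.7 CPM in shSMURF1 and 6.27 to 8.59 CPM in shControl, with CD14 at 13.1 CPM in shSMURF1 and 6.76 CPM in shControl. CD14 was called higher (log2 fold change 0.95, edgeR adjusted p = 1.39e-05) on groups that did not overlap, and passed in 8 of 8 fits that left out 1 library. CD3E and AIF1 were at 0 and PTPRC, the defining leukocyte gene, had 36 counts over the 8 libraries. The 6 endothelial markers summed to 32.6 to 44.4 CPM in shSMURF1 and 34.3 to 34.6 CPM in shControl, and the 7 pigment cell markers to 5.13 to 7.03 CPM in shSMURF1 and 5.97 to 7.78 CPM in shControl, both with ranges that overlapped between the groups. Most of the endothelial sum was TIE1, at 38.3 CPM in shSMURF1 and 31.8 CPM in shControl. TIE1 was called higher (log2 fold change 0.27, edgeR adjusted p = 0.0240) on groups that overlapped. CDH5, TEK and KDR had 15, 14 and 39 counts over the 8 libraries. The part of CD14 and the other markers in the results below was not tested.

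The 10 glycoprotein genes did not move as one group. POSTN, SPARC and FN1 rose and TINAGL1, TNC, FBLN5, TGFBI and FBN1 fell in shSMURF1, while THBS2 and FBN2 did not pass the test (edgeR quasi-likelihood test, adjusted p under 0.05 over all genes). That is 8 of 10 genes, where 22.5% of all genes tested passed. Of all genes tested, 10.3% rose and 12.2% fell. The 10 genes were chosen with earlier results of these data known, so these shares cannot show an excess of changes in such genes. Without shSMURF1 replicate 3 the same 8 genes passed, and 33.7% of 15878 genes tested did. Genes with more counts passed more often: among the 2444 genes with a mean of at least 100 CPM the share was 33.8% (11.1% higher and 22.7% lower). Of the 10 genes, 6 were that abundant, of which FN1 and SPARC rose and TGFBI, TNC and FBN1 fell. The groups did not overlap in 7 of the 10 genes, against 23.7% of all genes tested, and the same 7 also passed the test, against 18.7%. The median log2 fold change of the 10 was −0.06, beside 0.01 for all genes tested. In bulk RNA, fewer cells that express a gene and less of its RNA per cell cannot be told apart.

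**Figure D1:**
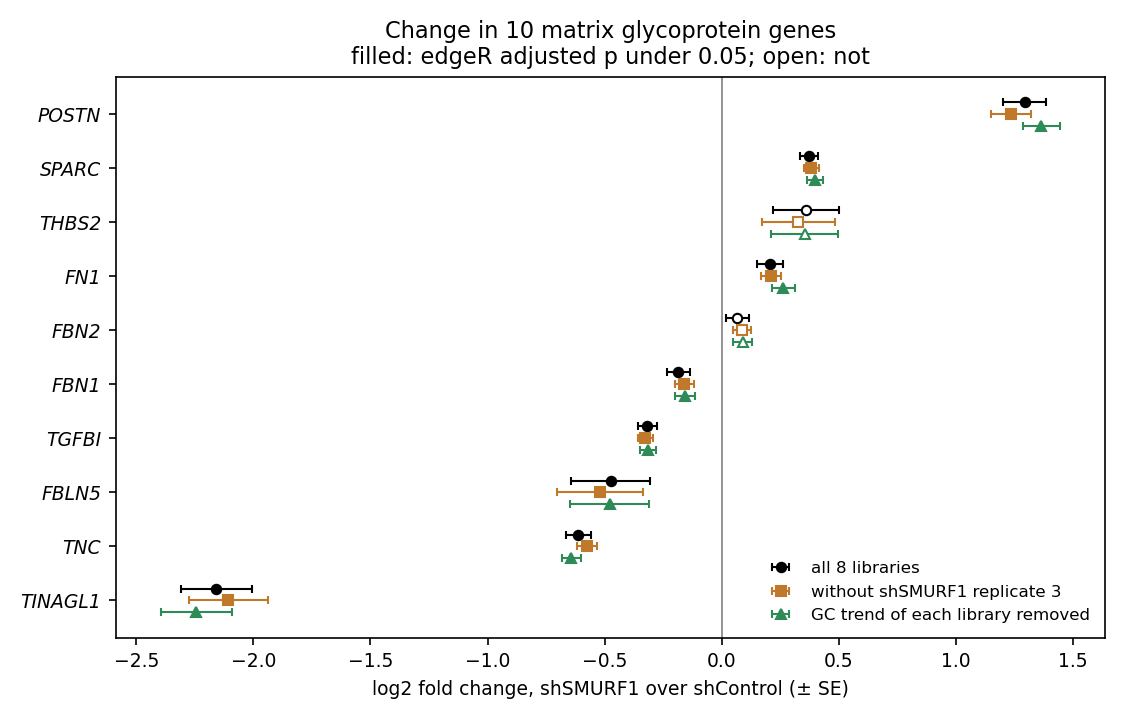
Log2 fold change of each of the 10 genes, shSMURF1 over shControl, with its standard error, from edgeR with all 8 libraries (circles), without shSMURF1 replicate 3 (squares) and after subtraction of the GC trends (triangles). Filled symbols had an adjusted p under 0.05; POSTN at 1.29 and TINAGL1 at −2.16 are the ends of the range, and no gene changes side between the 3 fits.

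FN1 (ENSG00000115414, GRCh38 chromosome 2, 215360440 to 215436172, minus strand) encodes fibronectin. It had 4133, 4820.4, 4461 and 4547 CPM in shSMURF1 replicates 1 to 4, against 3614, 4307, 3915 and 3739 CPM in shControl replicates 1 to 4. FN1 was the ninth most abundant of all genes tested. Replicate 2 was the highest library of both groups, and the groups overlapped, since shSMURF1 replicate 1 lay below shControl replicate 2. The mean was 4490 ± 283 CPM in shSMURF1 and 3894 ± 302 CPM in shControl (SD, n = 4 each), a rise of 1.15-fold (log2 fold change 0.21 ± 0.054 SE, edgeR adjusted p = 0.00914). Subtraction of the GC trends gave FN1 a log2 fold change of 0.26 (edgeR adjusted p = 0.000148); its longest transcript holds 42.2% G and C.

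POSTN (ENSG00000133110, chromosome 13, 37562583 to 37598844, minus strand) and TGFBI (ENSG00000120708, chromosome 5, 136028895 to 136063818, plus strand) encode the related proteins periostin and TGFBI, both built from fasciclin domains, which bind integrins and other matrix proteins, and both are known as genes that TGF-β induces. They went opposite ways. POSTN had 32.0, 39.5, 40.5 and 32.7 CPM in shSMURF1 replicates 1 to 4, against 14.7, 15.6, 15.0 and 13.7 CPM in shControl replicates 1 to 4. Every shSMURF1 library was more than 2 times the highest shControl library, with replicates 2 and 3 above replicates 1 and 4. The rise was 2.45-fold (log2 fold change 1.29 ± 0.093 SE, edgeR adjusted p = 5.99e-09), and 1.09% of all genes tested had a larger change in either direction. TGFBI had 1557, 1600.3, 1634 and 1610.1 CPM in shSMURF1 replicates 1 to 4, against 2052, 2039.8, 1902 and 1986 CPM in shControl replicates 1 to 4. All 4 shSMURF1 libraries were below all 4 shControl libraries. TGFBI fell to 80.2% of control (log2 fold change −0.32 ± 0.041 SE, edgeR adjusted p = 1.29e-05).

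As CPM per kilobase of exon, which allows levels of different genes to be compared, POSTN stood at 0.0290 to 0.0354 of the level of TGFBI in shSMURF1 libraries and at 0.00985 to 0.0113 of it in shControl libraries. The gap between the paralogs was thus smaller in every shSMURF1 library, although TGFBI remained the more abundant by far. The promoters of the pair are described next, and whether they played a part in the opposite changes was not tested. The 250 bases before the RefSeq start of POSTN hold 36.4% G and C, and those of TGFBI 72.8%, where the median over all promoter windows is 58.0%. Both strands were searched for 4 motifs. The box bound by SMAD proteins was searched as CAGAC. An AP-1 site, bound by FOS and JUN proteins, was searched as TGANTCA. A site for TEAD factors, the partners of YAP, was searched as GGAATG. The core element known as the TATA box was searched as TATAAA. These occur in 38.0%, 6.57%, 11.9% and 10.7% of the 35116 windows of that length. The TGFBI window holds none of them. The POSTN window, shown because it belongs to the gene with the largest rise among the 10, holds an AP-1 match 220 bases before the start, a CAGAC match 77 bases before it, and TATAAA 29 bases before it and, on the opposite strand, 182 bases before it. It is printed 5′ to 3′ on the gene's strand (RefSeq, GRCh38.p14, chr13:37598769-37599018, minus strand), with motif matches in capitals:
POSTN: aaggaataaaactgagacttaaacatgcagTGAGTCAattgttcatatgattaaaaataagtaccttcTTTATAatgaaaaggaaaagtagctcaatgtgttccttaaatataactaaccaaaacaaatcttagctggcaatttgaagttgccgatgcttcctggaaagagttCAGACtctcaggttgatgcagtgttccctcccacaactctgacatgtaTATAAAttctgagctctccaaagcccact
A match describes letters and shows no binding.

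**Figure D2:**
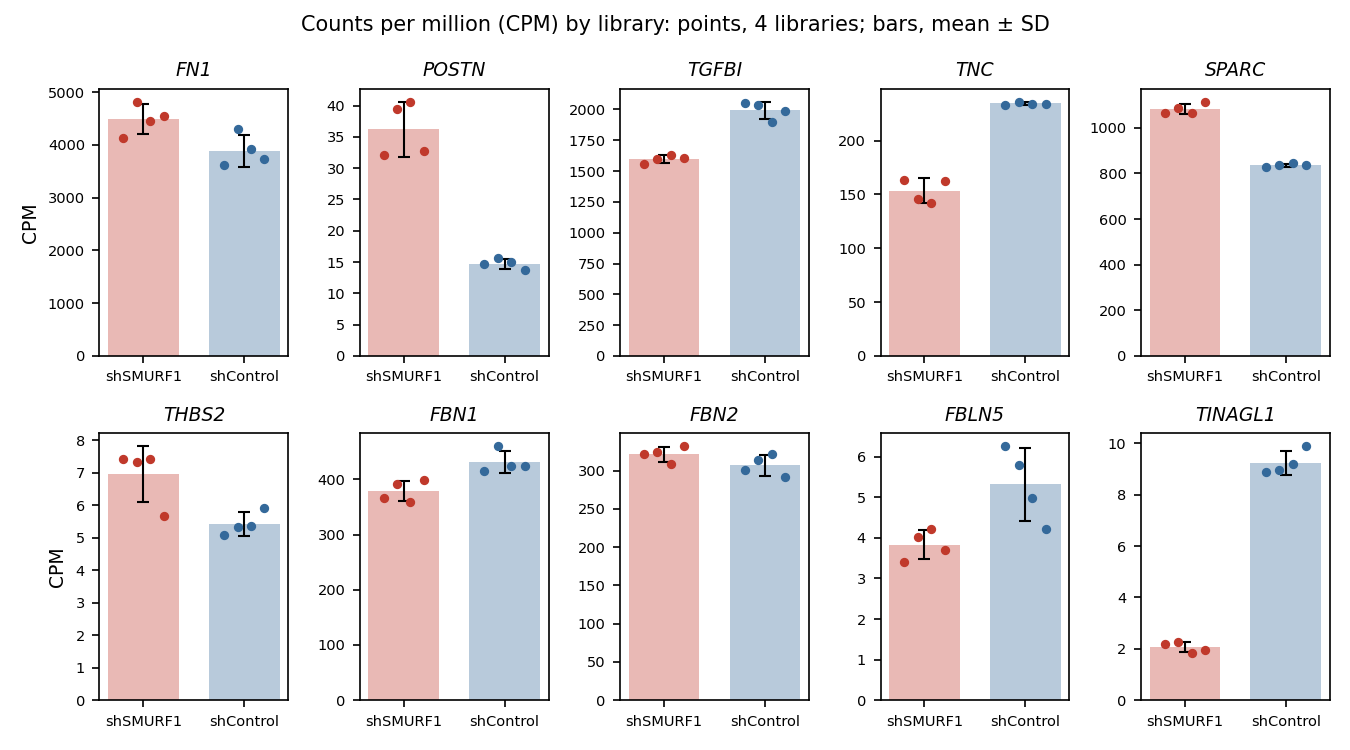
Expression in CPM (vertical axis, from 0) of each of the 10 genes in shSMURF1 (red) and shControl (blue); points are the 4 libraries, bars the mean and error bars the SD. POSTN and SPARC stand higher and TINAGL1, TNC and TGFBI lower in every shSMURF1 library, whereas the points of FN1, THBS2 and FBN2 overlap.

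TNC, SPARC and THBS2 encode matricellular proteins that are switched on in wound repair and development. TNC (ENSG00000041982, chromosome 9, 115019578 to 115118257, minus strand), tenascin-C, lessens cell adhesion to fibronectin. It had 163, 145, 142 and 163 CPM in shSMURF1 replicates 1 to 4, against 233, 236, 234 and 234 CPM in shControl replicates 1 to 4. The shControl libraries lay within 3 CPM of each other, and all shSMURF1 libraries were far below them. TNC fell to 65.4% of control (log2 fold change −0.61 ± 0.054 SE, edgeR adjusted p = 9.46e-08).

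SPARC (ENSG00000113140, chromosome 5, 151661096 to 151687165, minus strand), also called osteonectin, is a collagen-binding glycoprotein that acts in collagen assembly. It had 1066, 1086, 1065 and 1115 CPM in shSMURF1 replicates 1 to 4, against 829, 835, 844 and 837 CPM in shControl replicates 1 to 4. The groups were well apart, with a coefficient of variation of 2.15% in shSMURF1 and 0.763% in shControl. SPARC rose 1.29-fold (log2 fold change 0.37 ± 0.040 SE, edgeR adjusted p = 1.42e-06). The non-coding gene CLMAT3, on the opposite strand, overlaps 7.89% of its exonic bases, and reads from it cannot be told apart without strand.

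THBS2 (ENSG00000186340, chromosome 6, 169215780 to 169254044, minus strand), thrombospondin-2, clears matrix proteases and shapes collagen fibrils. It had 7.43, 7.32, 7.43 and 5.66 CPM in shSMURF1 replicates 1 to 4, against 5.07, 5.32, 5.36 and 5.93 CPM in shControl replicates 1 to 4. The first 3 shSMURF1 libraries lay above all shControl libraries and replicate 4 among them. The difference missed the threshold (log2 fold change 0.36 ± 0.14 SE, edgeR adjusted p = 0.0769) and passed it when shSMURF1 replicate 4 was left out (0.45, edgeR adjusted p = 0.0366). It rested on 79 to 116 counts per library.

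The promoter windows of TNC, which fell, and SPARC, which rose, are shown because the pair changed opposite ways with groups that did not overlap. The 250 bases of TNC hold 1 CAGAC match, on the opposite strand 70 bases before the start, and those of SPARC hold 1 GGAATG match, on the opposite strand 17 bases before it. Each is printed 5′ to 3′ on the gene's strand with matches in capitals (RefSeq, GRCh38.p14, chr9:115118158-115118407 and chr5:151686916-151687165, both minus strand):
TNC: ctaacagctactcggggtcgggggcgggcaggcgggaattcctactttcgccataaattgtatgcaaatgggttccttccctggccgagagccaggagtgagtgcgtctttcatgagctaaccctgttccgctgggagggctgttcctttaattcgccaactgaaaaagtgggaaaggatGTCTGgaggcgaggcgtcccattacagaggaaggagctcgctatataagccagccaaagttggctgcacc
SPARC: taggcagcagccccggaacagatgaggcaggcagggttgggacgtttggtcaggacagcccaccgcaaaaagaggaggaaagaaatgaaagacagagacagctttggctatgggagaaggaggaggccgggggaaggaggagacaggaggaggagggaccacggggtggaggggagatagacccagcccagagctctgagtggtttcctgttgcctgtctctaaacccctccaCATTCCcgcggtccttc
CAGAC was found upstream of 5 of the 10 genes, POSTN, TNC, THBS2, FBLN5 and TINAGL1, and GGAATG upstream of 4, SPARC, THBS2, FBN1 and TINAGL1. Each of these lists holds genes that rose and genes that fell, and the AP-1 match occurs upstream of POSTN alone among the 10. Of all 27305 genes with such windows, 11677 had a CAGAC match, 3902 a GGAATG match and 2200 an AP-1 match. FN1, TGFBI and FBN2 held no match to the letters searched for the 4 motifs in these windows. The windows of FN1 and TNC hold TATAAG, which differs from TATAAA in its last base and was not counted. The lack of a match therefore does not show the lack of a TATA box.

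FBN1 (ENSG00000166147, chromosome 15, 48408306 to 48645849, minus strand) and FBN2 (ENSG00000138829, chromosome 5, 128257909 to 128659185, minus strand) encode fibrillin-1, whose mutation causes Marfan syndrome with displaced lenses, and fibrillin-2, the more fetal form. FBN1 had 366, 391, 359 and 398 CPM in shSMURF1 replicates 1 to 4, against 415, 460.4, 424 and 424 CPM in shControl replicates 1 to 4. The groups did not overlap, but the gap between them was smaller than the SD of either. FBN1 fell to 87.9% of control (log2 fold change −0.19 ± 0.050 SE, edgeR adjusted p = 0.0104), and did not pass without shControl replicate 2, its highest library (−0.15, edgeR adjusted p = 0.0581). FBN2 had 321, 324, 309 and 332 CPM in shSMURF1 replicates 1 to 4, against 301, 313, 322 and 291 CPM in shControl replicates 1 to 4. These ranges overlapped and FBN2 did not pass (log2 fold change 0.07 ± 0.048 SE, edgeR adjusted p = 0.349). With the GC trend removed and shSMURF1 replicate 3 left out, FBN2 passed as higher (0.12, edgeR adjusted p = 0.0132).

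The level of FBN2 over that of FBN1, both per kilobase, was 1.07, 1.01, 1.05 and 1.01 in shSMURF1 replicates 1 to 4, against 0.881, 0.828, 0.925 and 0.836 in shControl replicates 1 to 4. The ratio was higher in every shSMURF1 library. Whether FBN2 lay above FBN1 depended on the gene length used. With the longest transcript as length, FBN2 was below FBN1 in both groups. The means were then 28.9 for FBN2 and 32.2 for FBN1 in shSMURF1, and 27.6 and 36.6 CPM per kilobase in shControl. FBLN5 (ENSG00000140092, chromosome 14, 91869412 to 91947987, minus strand) encodes fibulin-5, an organiser of elastic fibres that binds integrins. It had 3.39, 4.03, 4.21 and 3.69 CPM in shSMURF1 replicates 1 to 4, against 6.27, 5.80, 4.98 and 4.23 CPM in shControl replicates 1 to 4. The highest shSMURF1 library reached almost the lowest shControl library, and the shControl libraries were spread widely (coefficient of variation 16.9%). FBLN5 fell to 72.0% of control (log2 fold change −0.47 ± 0.17 SE, edgeR adjusted p = 0.0495), just inside the threshold on 53 to 105 counts per library. The call was lost in 4 of the other tests and filters, with the replicate number as a block (edgeR adjusted p = 0.0759), with scaling by the library total alone, and without any 1 of 6 libraries (edgeR adjusted p up to 0.162).

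**Figure D3:**
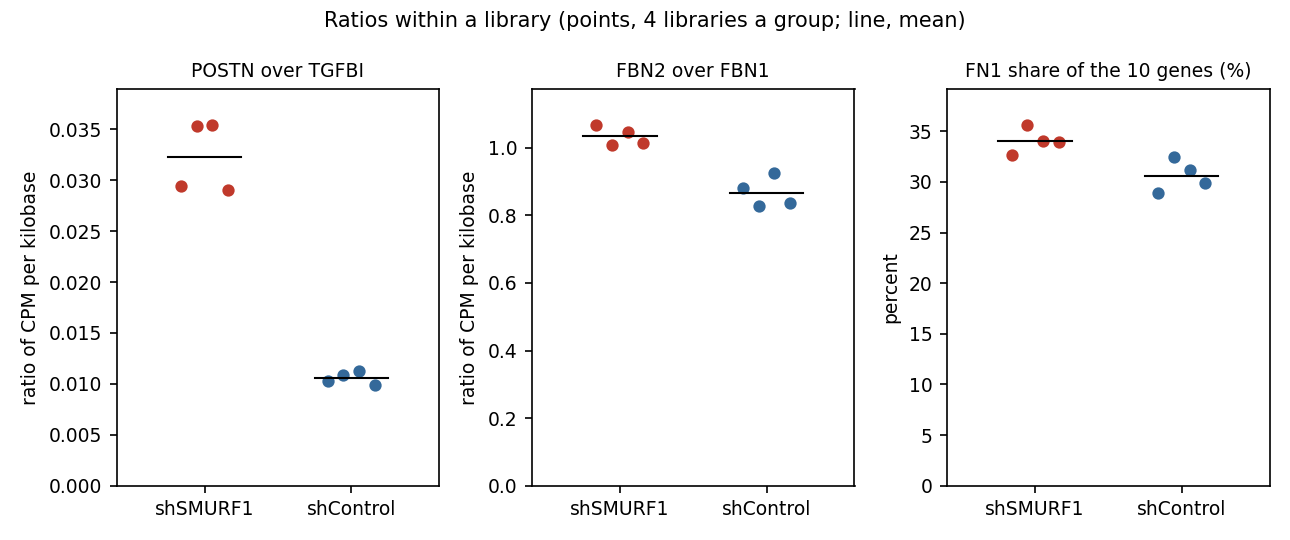
Ratios within each library of CPM per kilobase, POSTN over TGFBI and FBN2 over FBN1, and the share of FN1 in the summed CPM per kilobase of the 10 genes in percent; points are libraries, lines are means, and every vertical axis starts at 0. All 3 quantities are higher in every shSMURF1 library, although the FN1 shares of 32.7% in the lowest shSMURF1 library and 32.5% in the highest shControl library nearly touch. Whether FBN2 lies above FBN1 depends on the gene length used.

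TINAGL1 (ENSG00000142910, chromosome 1, 31576485 to 31587686, plus strand) encodes a secreted basement membrane glycoprotein related to tubulointerstitial nephritis antigen that binds integrins. It had 2.18, 2.28, 1.84 and 1.97 CPM in shSMURF1 replicates 1 to 4, against 8.89, 8.96, 9.22 and 9.90 CPM in shControl replicates 1 to 4. The groups were far apart. TINAGL1 fell to 22.4% of control (log2 fold change −2.16 ± 0.15 SE, edgeR adjusted p = 4.08e-09), and 0.192% of all genes tested had a larger change. The values rest on 28 to 34 counts per shSMURF1 library and 133 to 157 per shControl library. Counting alone would give a coefficient of variation of 17.6% at the shSMURF1 level, where 9.70% was observed. Its longest transcript has the highest GC content of the 10 genes, 59.6%. After subtraction of the GC trends its log2 fold change was −2.24. LINC01226, on the same strand, overlaps 2.99% of its exonic bases. Its 40 nearest tested neighbours had a median log2 fold change of −0.09, and the neighbours of all 10 genes (31 for THBS2, 40 for each other gene) had medians between −0.09 and 0.07.

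RefSeq gives TINAGL1 a pair of starts, and both windows are shown because the gene had the largest fall of the 10. The upstream window holds none of the 4 motifs. The downstream one holds CAGAC 177 bases and GGAATG 35 bases before its start. Both are printed 5′ to 3′ with matches in capitals (RefSeq, GRCh38.p14, chr1:31576265-31576514 and chr1:31577895-31578144, plus strand):
TINAGL1, upstream start: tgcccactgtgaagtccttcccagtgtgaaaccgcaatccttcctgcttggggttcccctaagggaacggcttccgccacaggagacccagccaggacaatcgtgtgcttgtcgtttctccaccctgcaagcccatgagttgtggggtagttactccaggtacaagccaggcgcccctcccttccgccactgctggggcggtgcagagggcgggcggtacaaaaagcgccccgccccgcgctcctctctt
TINAGL1, downstream start: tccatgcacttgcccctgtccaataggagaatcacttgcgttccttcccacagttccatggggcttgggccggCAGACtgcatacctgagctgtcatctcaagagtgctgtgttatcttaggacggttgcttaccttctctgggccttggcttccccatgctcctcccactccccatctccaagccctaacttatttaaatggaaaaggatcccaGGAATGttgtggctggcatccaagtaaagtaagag
Counts per gene do not say which start was used.

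The 10 genes spanned more than 2 orders of magnitude in level per kilobase, and 3 of them made up most of the sum. FN1, TGFBI and SPARC together held 90.1% to 90.7% of the summed CPM per kilobase in shSMURF1 and 88.8% to 89.1% in shControl. In shSMURF1 FN1 was the highest (259 ± 16.3 CPM per kilobase), followed by SPARC (224 ± 4.81) and TGFBI (205 ± 4.10), with no overlap between neighbours (SD, n = 4). In shControl TGFBI was the highest (255 ± 8.72 CPM per kilobase) and overlapped with FN1 (225 ± 17.4), while SPARC was lower than both (173 ± 1.32). Next came FBN2 and FBN1 in shSMURF1 (24.4 ± 0.734 and 23.6 ± 1.17 CPM per kilobase, overlapping) and then TNC (15.9 ± 1.19). In shControl FBN1 (26.8 ± 1.25 CPM per kilobase) was followed by TNC and FBN2 (24.3 ± 0.124 and 23.3 ± 1.02), which overlapped. POSTN was seventh in both groups, at 6.62 ± 0.811 CPM per kilobase in shSMURF1 and 2.70 ± 0.144 in shControl. TINAGL1 was the lowest of the 10 in shSMURF1 at 0.391 ± 0.0380 CPM per kilobase and the eighth in shControl at 1.75 ± 0.0875, with the means of THBS2 and FBLN5 between 0.771 and 1.09 in both groups. With the length of the longest transcript in place of all annotated exons, an alternative chosen after seeing the data, FN1 stayed the highest and TINAGL1 the lowest in shSMURF1, but TGFBI came before SPARC, FBN1 before FBN2 and FBLN5 before THBS2 there. In shControl TGFBI stayed first and THBS2 last, and FBLN5 came before TINAGL1. The levels themselves depend on this length: in CPM per kilobase they became, in shSMURF1, 489.6 for FN1, 343 for TGFBI, 10.7 for POSTN and 1.58 for FBLN5, and in shControl 424.6 for FN1, 428 for TGFBI, 4.37 for POSTN and 2.19 for FBLN5.

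**Figure D4:**
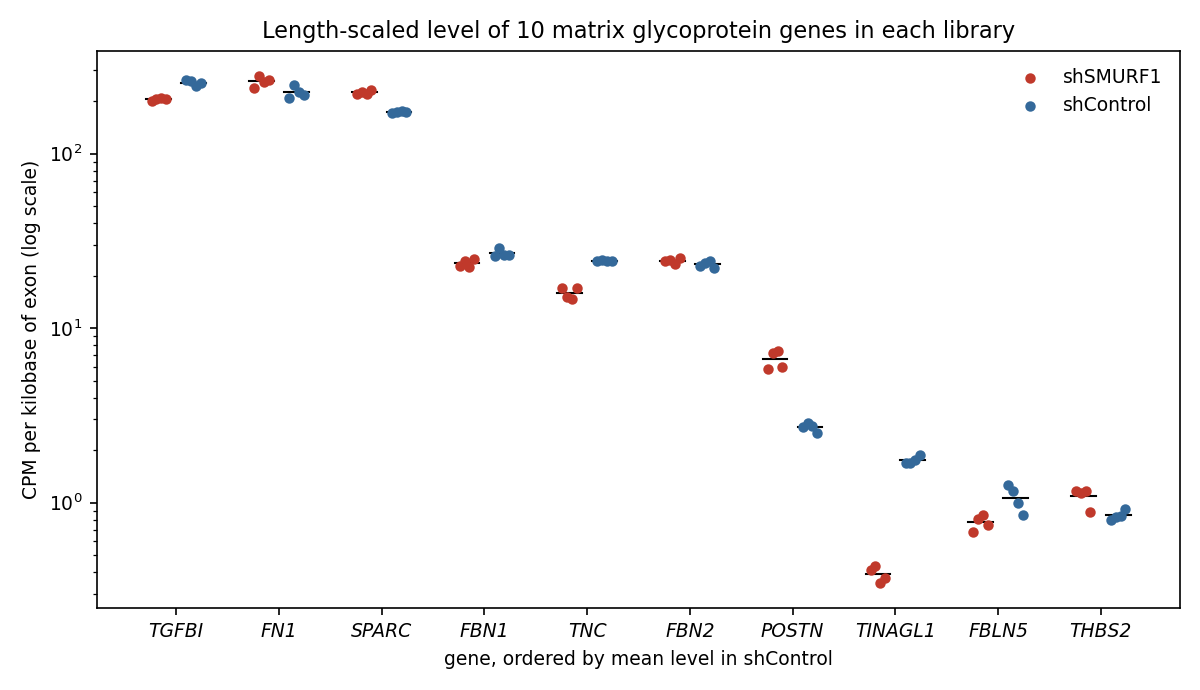
Level of each of the 10 genes in CPM per kilobase of annotated exon on a log scale, in shSMURF1 (red) and shControl (blue); points are libraries and lines are group means, with genes ordered by their shControl mean. FN1, TGFBI and SPARC lie between 172 and 278 CPM per kilobase in every library, and THBS2, FBLN5 and TINAGL1 below 2.

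Summed over the 10 genes, counts were 0.773% to 0.853% of each shSMURF1 library and 0.736% to 0.814% of each shControl library, so the total overlapped between the groups. Without FN1, TGFBI and SPARC the sum was 70.3 to 74.9 CPM per kilobase in shSMURF1 and 79.0 to 83.5 in shControl, which did not overlap. The spread within groups also differed between genes. In shControl TNC varied with a coefficient of 0.510% and SPARC with 0.763%, under the 1.64% and 0.868% that counting alone would give, whereas FN1 varied with 7.75% on 59267 to 63904 counts, far above its counting error of 0.403%. In shSMURF1 the coefficient was 7.45% for TNC and 2.15% for SPARC, above the 2.04% and 0.769% of counting alone, 6.30% for FN1 and 12.3% for POSTN.

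Genes related to the 10 by family or function moved in both directions too. The shares called in the 6 lists, in the order below, were 40%, 53.3%, 46.2%, 37.5%, 50% and 58.8% of genes tested. Of all genes tested 22.5% were called, and 33.8% of those with a mean of at least 100 CPM. The lists were chosen with earlier results of these data known, so their counts are no test of a family. Of 5 tested relatives among the tenascins, thrombospondins and vitronectin, THBS1, a thrombospondin that activates latent TGF-β, fell (958 ± 47.9 CPM in shSMURF1 and 1456 ± 72.1 CPM in shControl, log2 fold change −0.60 ± 0.048 SE, edgeR adjusted p = 2.50e-08). COMP, the cartilage thrombospondin, was the only one called higher (log2 fold change 0.72, edgeR adjusted p = 0.0401), and it did not pass with the replicate number as a block (edgeR adjusted p = 0.0583), with the GC trend removed, or without any 1 of 5 libraries. THBS3 did not pass (−0.07). The median log2 fold change of the 5 was −0.07.

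Among 15 tested genes of fibrillins, fibulins and elastic fibres, 5 rose and 3 fell, with a median log2 fold change of 0.07. HMCN1, a giant fibulin, and FBLN2, fibulin-2, rose by 0.69 ± 0.11 and 0.67 ± 0.062 on the log2 scale (edgeR adjusted p = 0.000108 and 1.93e-07). EFEMP1, fibulin-3, fell (121 ± 19.5 CPM in shSMURF1 and 186 ± 3.10 CPM in shControl, log2 fold change −0.63), as did LTBP2, a latent TGF-β binding protein relative found in the zonule (−0.23). The 40 nearest tested neighbours of LTBP2 had a median log2 fold change of −0.19. LTBP4 missed the threshold (0.07 ± 0.074 SE), passed it as higher when shSMURF1 replicate 3 was left out (0.16, edgeR adjusted p = 0.00128) and lay at −0.09 with the GC trend removed. ELN, elastin, had 14 counts over the 8 libraries and was not tested. Fibulin genes thus included rises (FBLN2 and HMCN1) and falls (EFEMP1 and FBLN5).

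Of 13 tested members of the SPARC family and other matricellular genes, 2 rose and 4 fell, with a median of −0.13. SMOC1, a SPARC relative of basement membranes, fell to 28.0% of control (9.66 ± 0.956 CPM in shSMURF1 and 34.5 ± 2.61 CPM in shControl, edgeR adjusted p = 4.21e-11), and MGP, matrix Gla protein, fell to 40.5% of control. SPOCK1, a proteoglycan with a SPARC-like domain, rose (759 ± 48.6 CPM in shSMURF1 and 630.2 ± 21.99 CPM in shControl), as did AEBP1, a collagen-binding protein at 2.49 CPM in shSMURF1 and 0.777 CPM in shControl. FSTL1 missed the threshold (−0.11) and passed it as lower when shSMURF1 replicate 3 was left out (−0.16, edgeR adjusted p = 0.000185). Within the SPARC family, SPARC and SPOCK1 rose where SMOC1 fell.

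Of 8 tested basement membrane genes, 2 rose and 1 fell, with a median of −0.0021. NID1, nidogen-1, rose (191 ± 8.34 CPM in shSMURF1 and 168 ± 8.28 CPM in shControl, log2 fold change 0.19, edgeR adjusted p = 0.0142) and LAMB1, the laminin β1 chain, fell (−0.26, edgeR adjusted p = 0.000341). LAMB1 lay at 0.09 relative to its 40 nearest tested neighbours on chromosome 7, which had a median log2 fold change of −0.35. AGRN, agrin, was called higher (0.26, edgeR adjusted p = 0.0475) on groups that overlapped, and it lay at 0.09 and did not pass with the GC trend removed (edgeR adjusted p = 0.108). AGRN passed without shSMURF1 replicate 3 (0.38, edgeR adjusted p = 1.00e-08) but not without any other 1 library (0.21 to 0.29). The 40 nearest tested neighbours of AGRN had a median log2 fold change of 0.21. Whether changes shared with neighbouring genes played a part was not tested. NID1 did not pass without shSMURF1 replicate 2 or shControl replicate 1 or 4 (edgeR adjusted p = 0.0519 to 0.0757). PXDN did not pass (0.02). TINAG, the closest relative of TINAGL1, had 5 counts over the 8 libraries. No tested gene of this list fell as far as TINAGL1.

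Of 16 tested receptors for these proteins, 3 rose and 5 fell, with a median of −0.06. ITGB6, the β6 chain that pairs with αv to bind fibronectin and latent TGF-β, rose from a low level (2.94 ± 0.534 CPM in shSMURF1 and 1.38 ± 0.468 CPM in shControl; AC092153.1 overlaps 20.6% of its exonic bases), and ITGA4, the α4 chain, rose by 0.68 on the log2 scale. The third that rose was ITGB5 (0.19), named after its values were seen, as are the next. The 5 that fell were SDC4 and SDC2, syndecans that serve as coreceptors for matrix proteins (−0.36 and −0.31), CD44 (−0.23), ITGB3 (−0.21) and ITGB1 (−0.20), the chain of most fibronectin receptors. The exons of ITGB3 overlap AC068234.1 over 51.6% of their bases, and ITGB3 did not pass without shSMURF1 replicate 1 or 2 or shControl replicate 3 or 4 (−0.21 to −0.17, edgeR adjusted p = 0.0619 to 0.113). ITGA3 missed the threshold (−0.05) and passed it as lower with the GC trend removed (−0.15, edgeR adjusted p = 0.000370).

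Of 17 collagens and enzymes that act with the 10 genes in matrix assembly, all tested, 8 rose and 2 fell, with a median of 0.18. COL3A1, collagen III, rose (40.8 ± 2.26 CPM in shSMURF1 and 16.5 ± 0.916 CPM in shControl, log2 fold change 1.30 ± 0.077 SE), a size near that of POSTN, and LOXL4 rose at a low level with groups that overlapped (1.26 ± 0.35 SE). TGM2, which cross-links fibronectin, the collagen genes COL5A2 and COL12A1, and BMP1, a procollagen protease, rose by 0.90, 0.51, 0.48 and 0.35 on the log2 scale; these 4 were named after their values were seen. LOX, lysyl oxidase, fell (130.002 ± 9.24 CPM in shSMURF1 and 319 ± 6.78 CPM in shControl) and so did COL1A2 (−1.01), whereas COL1A1 did not pass with all libraries (−0.09) but did as lower with the GC trend removed (−0.19, edgeR adjusted p = 0.00201). With that trend removed 4 genes of the list were lower. COL1A2 lay at −0.70 relative to its 40 nearest tested neighbours on chromosome 7, which had a median log2 fold change of −0.30.

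**Figure D5:**
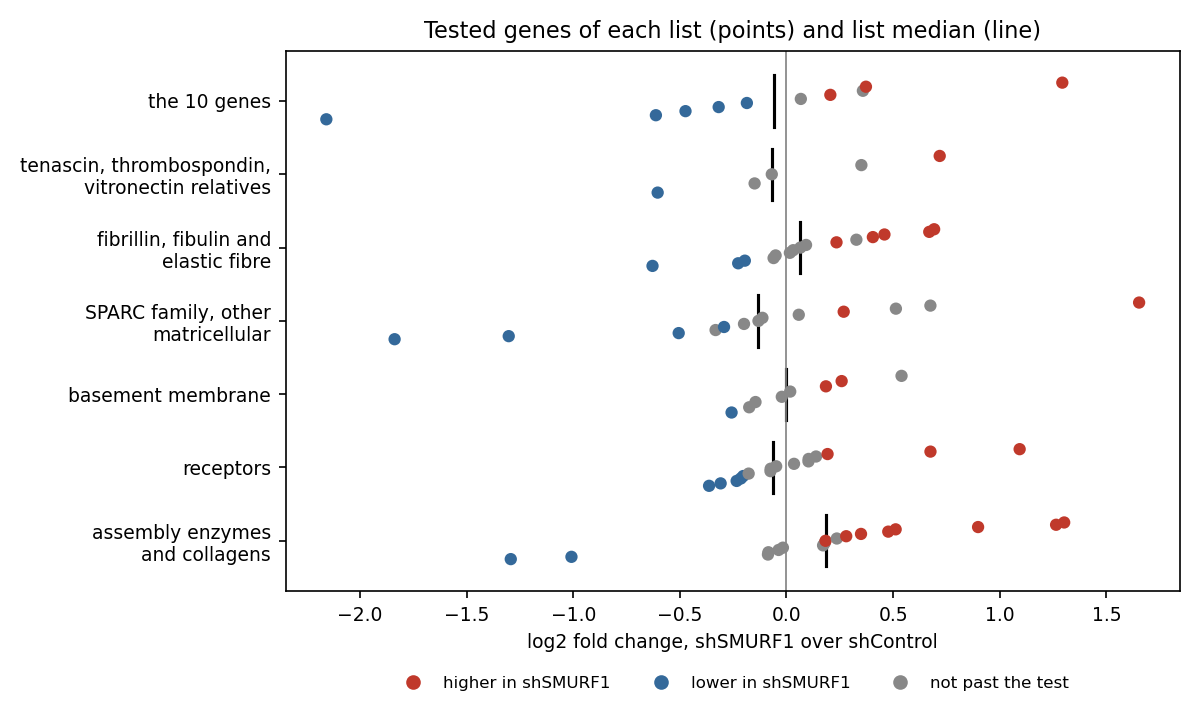
Log2 fold change, shSMURF1 over shControl, of every tested gene of the 10 and of the 6 related lists; each point is a gene (red, higher; blue, lower; grey, not past the edgeR test at an adjusted p of 0.05) and the black lines are list medians, which lie between −0.13 and 0.18. Points of both colours appear in every list.

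Over the 8 libraries, the protein-coding genes whose log2 CPM profile, centred on its mean, was nearest to that of a gene of the 10 were sought among 10876 genes with a mean of at least 5 CPM. Nearest to POSTN were H2AFY2, a histone variant gene, COLEC12, a scavenger receptor, and PCDH10, a protocadherin, at Euclidean distances of 0.394 to 0.430 on the log2 scale. They rose by 1.35, 1.20 and 1.17. Nearest to TINAGL1 were KRT19, a simple-epithelium keratin, EFNA5, an ephrin, and SMOC1, at distances of 0.290 to 0.540 and with log2 fold changes of −2.25, −1.94 and −1.84. Nearest to SPARC were DDX56, BIRC5 and KCTD2 at 0.0690 to 0.0860, with log2 fold changes of 0.40, 0.39 and 0.34. Nearest to FN1 were DAGLB, C2orf68 and YPEL1 at 0.123 to 0.137, with log2 fold changes of 0.18, 0.22 and 0.20. Of these, DAGLB and YPEL1 did not pass (edgeR adjusted p = 0.0833 and 0.287). C2orf68 passed with all libraries but in only 3 of 8 fits that left out 1 library. In a design of 2 groups such likeness is mostly a like difference between the groups, and the 8 libraries are shared by every pair.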

How the data were processed

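RNA-seq counts of 8 libraries of SRA01/04 cells were used, 4 per group, with groups taken from the sample descriptions. The authors deposited 1 table of unnormalized whole-number read counts by gene. The tools listed in the submitters' processing notes are featureCounts (version 1.5.0-p3), HISAT2 (version 2.0.5), fastp and CASAVA. Neither the build nor the gene models behind the counts are named in the sources used. Per the labels' protocols, RNA was selected by poly(A) and cDNA primed with random hexamers, with no step that marks the strand, so a read in exons shared by genes of both strands could belong to either. All 58735 identifiers were found in GENCODE release 29, which gave symbols, positions on GRCh38, exon lengths and the GC content of each gene's longest transcript.

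Genes were filtered with edgeR's filterByExpr (minimum count 10) and scaled by TMM. shSMURF1 was tested against shControl with edgeR's quasi-likelihood F test, two-sided, without covariates (edgeR 4.0.16, limma 3.58.1, DESeq2 1.42.0, R 4.3.3), adjusted by Benjamini-Hochberg over all 15647 genes tested; a gene changed at an adjusted p under 0.05. SE is the log2 fold change over the root of F. CPM per kilobase divides CPM by the length of all annotated exons. Neighbours are the 20 nearest tested genes on each side, or as many as the chromosome holds (31 in all for THBS2). GC trends were smoothing splines with 5 degrees of freedom. On simulated counts of 15441 genes, 50 genes each were changed 1.25-, 1.5-, 2- and 4-fold. The test recovered 50%, 62%, 78% and 98% of them, with 11 other genes called. The simulated counts held no GC trend and no library that stood apart, so these figures do not give the error rates of the real libraries.

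The 10 genes, the 6 related lists and the markers were chosen with earlier results of these data known. Named were all 10 genes, SMURF1, from each list up to 2 genes with the largest rise, 2 with the largest fall and the most abundant one not past the test, and the 3 nearest profiles for FN1, POSTN, TINAGL1 and SPARC; other genes were named after their values were seen. Replicate numbers are shared between the groups, but same-numbered libraries did not deviate together (correlations of −0.18 to 0.06). No 2 libraries agreed within sampling noise.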

Additional observations from a re-analysis of the deposited data

Results flagged for a closer look

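In THBS2, 1 library stood apart from its group: shSMURF1 replicate 4 had 5.66 CPM, where the other 3 had 7.32 to 7.43 CPM. The gap to the nearest library was 0.940 of the group's range, above the 95% critical value of 0.829 for 4 samples. It was 1 of 22 groups of 4 libraries examined, and chance alone is expected to give about 1 such library in 20 groups.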

How the results depend on the processing

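None of the 10 genes changed direction in the 190 values from other settings. Of these, 180 carry a test and 165 stayed on the same side of the threshold; the other 10 are differences from neighbouring genes, with no test. POSTN, TGFBI, TNC, SPARC, TINAGL1 and FN1 passed under all of them that give a test. FBLN5 did not pass with the library total alone (−0.45), DESeq2 (−0.48, adjusted p = 0.0547), limma-voom (−0.46), with every counted gene kept (−0.48), with genes kept only from 1 CPM in 4 libraries (−0.47) or with the replicate block (−0.46); without each library in turn it lay between −0.57 and −0.38. Ranges without each library were −0.21 to −0.15 for FBN1 and 0.32 to 0.45 for THBS2. FBN2 passed only with the GC trend removed and shSMURF1 replicate 3 left out (0.12). With each library left out in turn, 3 or 4 of the 10 genes rose and 3 to 5 fell, the 3 without shControl replicate 2. Of all genes, 1216 to 2601 rose and 1547 to 2747 fell, the most without shSMURF1 replicate 3.

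Among the related lists, basement membrane genes called higher were 1 with DESeq2, limma-voom, the replicate block, the GC trend removed, and the trend removed with the block, and 0 to 2 without each library; those lower were 2 with every counted gene kept and in all 3 fits with the GC trend removed. Lower collagens and enzymes were 4 in those 3 fits. Higher tenascin and thrombospondin relatives were 0 with the block and in those 3 fits, and 0 to 1 without each library. Signs turned, without passing the test, for LTBP4 (−0.089, −0.089 with the block and −0.073 without shSMURF1 replicate 3) and PXDN (−0.025 and −0.024 with the block) with the GC trend removed, and on leaving out a library for PXDN (−0.0084 to 0.067), COL1A1 (−0.15 to 0.017), ITGA3 (−0.086 to 0.011) and PAX6 (−0.056 to 0.081). The cause was not tested.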
